A study of Homo sapiens with 5 samples.

Results

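VGF, GPNMB and AHNAK2 were examined in cells resistant to the EZH2 inhibitor GSK126, across every library of the series. These 3 genes of the 30476 in the count table were chosen by their measured values, because their read counts were higher in the GSK126-treated than in the untreated library of both resistant clones. For these genes that difference is therefore given below as a description, and fits of the same contrast across all genes are no test of them. VGF was 4.18-fold and GPNMB 2.66-fold higher in the treated library of clone 3, and 5.92-fold and 2.52-fold higher in that of clone 4. AHNAK2 differed less, by 1.44-fold and 1.76-fold. In parental cells the level of each gene lay between the mean of the untreated and the mean of the treated resistant libraries.

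RNA-seq was performed on TOV21G, an established ovarian clear cell carcinoma (OCCC) line that carries mutated ARID1A, a subunit of the SWI/SNF chromatin remodeling complex. All 5 libraries share this background. Parental cells, labelled as untreated control, gave 1 library. EZH2 inhibitor-resistant (EIR) clones 3 and 4 had been picked from cells that stably grew in GSK126 as it was raised from 5 to 10, 15 and 20 uM, and each clone gave 1 untreated and 1 GSK126-treated library. Each of them is thus a single clone with 1 library per condition, and all libraries of EIR cells carry the history of selection in the drug. How much GSK126 the treated libraries received, for how long, and for how long the untreated ones had been without it is not given in the labels, and no treated parental library was analysed here.

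EZH2 is the methyltransferase within PRC2, a polycomb complex that places the repressive mark H3K27me3 on histones, and GSK126 blocks this activity. VGF (nerve growth factor inducible) encodes a secreted precursor of the granin type that is stored in secretory granules of neurons and endocrine cells and cut into several peptides, and it is a known target of cAMP and CREB signaling. GPNMB encodes a transmembrane glycoprotein of melanosomes and lysosomes, which is shed from the cell surface by metalloproteases and transcribed under control of MITF, TFE3 and TFEB, the MiT/TFE factors. AHNAK2 encodes a very large scaffold protein of the cell cortex and is the close relative of AHNAK, which binds the annexin A2 and S100A10 complex.

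The sequences upstream of the start sites are shown because they were searched for motifs of CREB and MiT/TFE factors, the known regulators named above. They are RefSeq sequences from a table built on GRCh38.p14, and each of the 3 windows of 250 bases matched GRCh37, the assembly of the files, at 1 position. VGF lies on chr7:100805790-100808850 (minus strand), and its window was chr7:100808851-100809100. GPNMB lies on chr7:23275586-23314727 (plus strand). Its RefSeq start is inside the annotated gene, and 78 of the 250 bases of its window chr7:23286144-23286393 overlap an annotated exon, so that the stretch chr7:23286144-23286315 is printed. AHNAK2 lies on chr14:105403581-105444711 (minus strand), and its window was chr14:105444712-105444961, the outer of 2 listed. The stretches are written 5′ to 3′ on the strand of the gene, with capitals marking the motifs searched.
VGF: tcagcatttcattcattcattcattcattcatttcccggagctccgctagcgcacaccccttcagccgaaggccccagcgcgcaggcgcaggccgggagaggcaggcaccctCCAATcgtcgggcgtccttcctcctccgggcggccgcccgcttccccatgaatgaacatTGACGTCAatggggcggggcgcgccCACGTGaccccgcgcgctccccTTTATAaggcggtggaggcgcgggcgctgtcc
GPNMB: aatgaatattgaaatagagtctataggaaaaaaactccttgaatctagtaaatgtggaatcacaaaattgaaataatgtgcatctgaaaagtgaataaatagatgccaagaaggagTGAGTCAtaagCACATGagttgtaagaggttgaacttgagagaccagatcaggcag
AHNAK2: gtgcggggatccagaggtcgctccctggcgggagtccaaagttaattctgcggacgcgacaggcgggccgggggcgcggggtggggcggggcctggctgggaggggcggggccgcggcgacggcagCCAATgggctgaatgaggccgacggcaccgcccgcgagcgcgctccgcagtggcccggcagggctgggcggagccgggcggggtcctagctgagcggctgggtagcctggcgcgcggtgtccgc

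The letters of 6 motifs were searched on both strands, and the share of 35116 upstream windows of the same length that hold each is given as background. In the VGF window the full cAMP response element TGACGTCA, the motif bound by CREB, stood 79 to 72 bases before the start and was present in 1.65% of all windows. The same window held the E-box CACGTG (54 to 49 bases before the start, 6.34% of windows), TATAAA on the opposite strand (32 to 27 bases, 10.7%) and CCAAT (138 to 134 bases, 32%). In the GPNMB window the AP-1 motif TGANTCA (134 to 128 bases, 6.57% of windows) was followed by the E-box CATGTG, the core of the M-box bound by MiT/TFE factors. This E-box was read on the opposite strand as CACATG at 123 to 118 bases and again at 62 to 57 bases, the latter within the exonic part that is not printed, and 9.42% of windows held it. The AHNAK2 window held CCAAT alone of these motifs (124 to 120 bases). No motif was shared by all 3 windows, and their GC content was 66.0% for VGF, 38.8% for GPNMB and 77.2% for AHNAK2, against a median of 58.0% over all windows. A match describes letters in a window and is not evidence that a factor binds there.

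Estimated read counts summed to between 25479238 and 30764963 per library, with the lowest sum in treated clone 4, and 15588 to 16432 genes had at least 10 counts. Normalized read counts below are counts divided by the median-of-ratios size factor of the library. In bulk RNA, a change in the number of cells that express a gene cannot be told apart from a change in RNA per cell. Of the OCCC and epithelial markers, PAX8, KRT8 and KRT18 had at least 3031 counts in every library. SPP1 had 7952 to 39892. KRT19 had 112 counts in the parental library, 1763 and 2022 in clone 3 and 0 and 7 in clone 4. EPCAM had 398 in the parental library, 426 and 498 in clone 3 and 0 and 1 in clone 4. KRT19 and EPCAM were thus nearly missing from clone 4. NAPSA had 2 counts in the parental library, 53 and 50 in clone 3 and 6 and 4 in clone 4. MUC1 had 3 to 71 over all libraries. ARID3A had 1330 in the parental library and 235 to 316 in the EIR libraries. With DESeq2, 6 of the 9 OCCC markers in the table were lower in clone 4. Of all 17708 genes tested between the clones, 1738 (9.81%) were called, 1154 of them lower in clone 4.

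The levels in every library were compared first. For VGF (ENSG00000128564), normalized read counts were 89.6 in the parental library, 34.3 in untreated and 143 in treated clone 3, and 114 in untreated and 674 in treated clone 4. These values rest on 89, 37, 145, 112 and 637 reads in the same order, so that untreated clone 3 is the least precise. Treated clone 4 stood apart from all other libraries, and the highest library was 19.7-fold above the lowest.

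For GPNMB (ENSG00000136235), normalized read counts were 636 in the parental library, 273 in untreated and 727 in treated clone 3, and 528 in untreated and 1331 in treated clone 4. Both untreated libraries were below and both treated libraries above the parental one. Treated clone 4 was again the highest, and the highest library was 4.87-fold above the lowest.

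For AHNAK2 (ENSG00000185567), normalized read counts were 6814 in the parental library, 5092 in untreated and 7310 in treated clone 3, and 4420 in untreated and 7788 in treated clone 4. Here too the parental level fell between the untreated and the treated libraries, and the whole spread was 1.76-fold. For all 3 genes, the choice had set the treated library above the untreated one in each clone. The share of all genes with a parental level in between was not counted, so nothing about these genes is read from that order. Per length of annotated exons, the levels in parental cells were 1.11 RPKM for VGF, 3.58 RPKM for GPNMB and 12.1 RPKM for AHNAK2. In treated clone 4 they were 9.33, 8.36 and 15.4 RPKM, so that VGF was level with GPNMB per length there, while in untreated clone 3 it was the lowest at 0.449 RPKM, against 1.62 for GPNMB and 9.52 for AHNAK2.

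**Figure D1:**
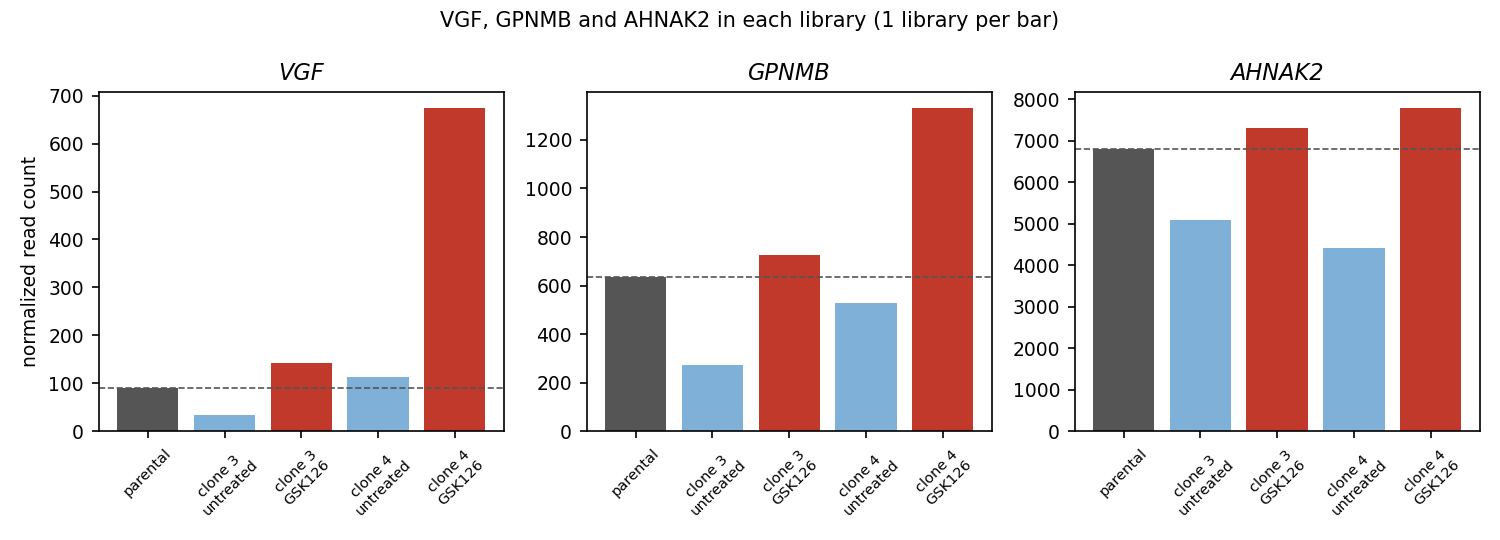
Normalized read count (linear axis from 0) of VGF, GPNMB and AHNAK2 in each of the 5 libraries, with the parental library in gray, untreated EIR libraries in blue, GSK126-treated ones in red and a dashed line at the parental level. Each bar is 1 library, so there are no error bars, and in both clones the treated bar exceeds the untreated one, from 34.3 to 143 for VGF in clone 3 and from 114 to 674 in clone 4.

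The treated library was then set against the untreated library within each clone. For VGF the ratio was 4.18 in clone 3 (95% interval 2.899 to 6.18) and 5.92 in clone 4 (4.83 to 7.30). The intervals are exact binomial ones and cover counting error only, since each clone and condition has 1 library and reads amplified without molecular identifiers are not independent molecules. GPNMB was 2.66-fold higher in treated clone 3 (2.32 to 3.06) and 2.52-fold higher in treated clone 4 (2.27 to 2.80), nearly the same ratio in both clones. For AHNAK2 the ratio was 1.44 in clone 3 (1.39 to 1.49) and 1.76 in clone 4 (1.70 to 1.83). Its high counts gave it the narrowest intervals, and those of the clones did not overlap.

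These ratios were placed among those of the 11564 genes whose mean normalized count was 100 or more. The log2 ratios of all these genes had an SD of 0.24 in clone 3 and 0.39 in clone 4, around medians of 0.03 and -0.03. VGF, with log2 ratios of 2.05 and 2.56, was the 4th highest gene in clone 3 and the 9th in clone 4. GPNMB (1.41 and 1.33) was 10th and 71st. AHNAK2 (0.52 and 0.82) was 183rd and 338th. Ordered by the smaller of the 2 log2 ratios, VGF was 1st, GPNMB 3rd and AHNAK2 86th. A log2 ratio of at least 0.5 in both clones was reached by 97 genes (0.839%), among them all 3 described here, and a ratio of at least 2-fold in both by 8 genes (0.0692%), among them VGF and GPNMB. Because this contrast chose the genes, nothing about them is read from these shares.

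The next genes in the same order were IGFBP4, COL5A1 and MBP. IGFBP4, a secreted binding protein of insulin-like growth factors, had 42.6 and 126 normalized counts in untreated and treated clone 3, and 135 and 498 in clone 4. COL5A1, a fibrillar collagen chain, had 220 and 516 in clone 3 and 168 and 437 in clone 4. MBP, the myelin basic protein gene, had 77.8 and 182 in clone 3 and 15.3 and 43.4 in clone 4. VGF and GPNMB and these genes thus share a ratio above 2 in both clones while their levels in the clones differ, with clone 4 above clone 3 for IGFBP4 and below it for MBP.

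**Figure D2:**
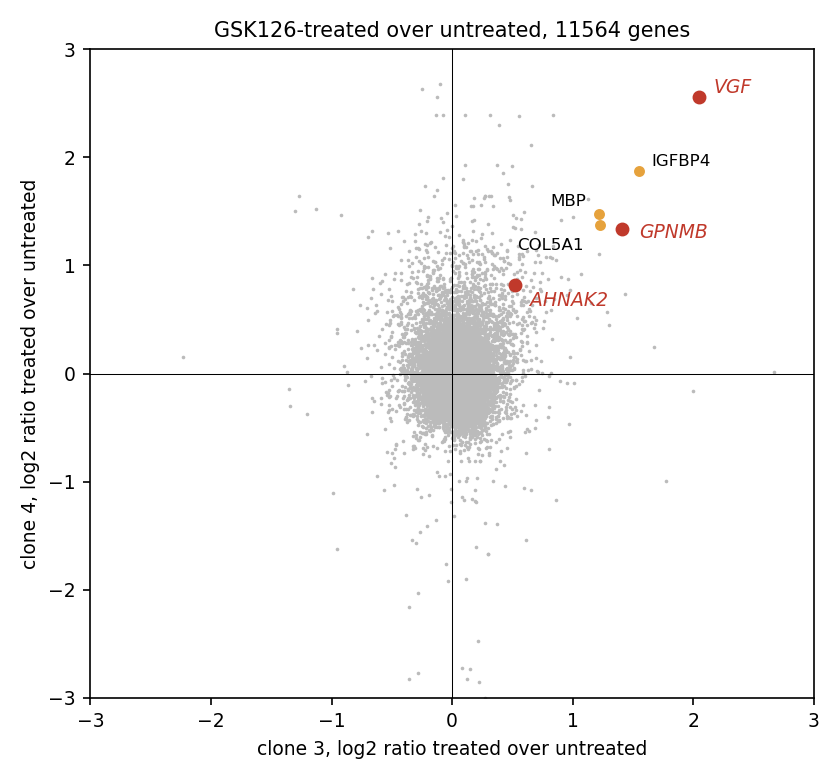
Log2 ratio of the normalized counts of treated over untreated libraries in clone 3 (x axis) and clone 4 (y axis) for 11564 genes in gray, with VGF, GPNMB and AHNAK2 in red and IGFBP4, COL5A1 and MBP in orange. Axes end at 3 on either side, which leaves 21 genes out, and VGF is the gene farthest to the upper right at 2.05 and 2.56.

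Across all genes, the tests called few between treated and untreated EIR cells. The main fit leaves out the clone and has 1 library per clone and condition, so few calls do not show that the cells were alike. DESeq2 called 1 of 29847 genes (0.00335%, 117 genes at an unadjusted p under 0.05). Adding the replicate block (the clone number) raised this to 4 (0.0134%). The 4 were AMIGO3, lower in treated cells, IGFBP4, higher, and VGF and GPNMB, which were chosen on this same contrast, so that nothing about them is read from these calls. With edgeR's quasi-likelihood test, 0 genes passed without the block (232 at an unadjusted p under 0.05) and 1 with it (839), and that gene was lower in treated cells.

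To ask where the EIR clones stood relative to the cells they came from, EIR and parental libraries were compared. None of the 3 genes passed an adjusted p of 0.05 in any of the main contrasts with parental cells, while 25.5% of genes tested did so with all EIR libraries pooled. The mean normalized read count over the EIR libraries was 241 ± 292 (SD, n = 4) for VGF, 715 ± 451 for GPNMB and 6152 ± 1647 for AHNAK2. These 4 libraries are pairs from 2 clones, and the pooled fit treats them as replicates, so its p-values for all genes take no account of the pairing. The log2 fold change was 1.43 (SE 1.73, 95% interval -1.95 to 4.81, DESeq2 adjusted p = 0.598) for VGF, 0.17 (SE 0.72, -1.24 to 1.58, DESeq2 adjusted p = 0.896) for GPNMB and -0.15 (SE 0.37, -0.87 to 0.57, DESeq2 adjusted p = 0.815) for AHNAK2. Over the alternative settings the adjusted p stayed between 0.391 and 0.979. These intervals are wide and do not show that the levels were alike. With offsets for the GC content of genes, the log2 fold change of VGF, whose transcripts hold 70.1% GC, was 2.21, and that of AHNAK2 (57.9% GC) turned to 0.26. Without treated clone 4 that of VGF was 0.12 and that of GPNMB turned to -0.31.

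Untreated EIR cells alone, in which 13.2% of genes differed from parental cells, had lower mean counts of all 3 genes. AHNAK2 came nearest to the threshold, its log2 fold change being -0.52 (SE 0.24, 95% interval -0.99 to -0.05, DESeq2 adjusted p = 0.150), and it was 0.747 times the parental level in clone 3 and 0.649 times in clone 4. GPNMB was 0.430 and 0.831 times the parental level (log2 fold change -0.67, SE 0.57, DESeq2 adjusted p = 0.519). VGF was 0.382 times the parental level in clone 3 (0.253 to 0.567) and 1.27 times in clone 4 (0.954 to 1.70), so that the clones lay on either side of it (log2 fold change -0.28, SE 1.04, DESeq2 adjusted p = 0.917). The untreated libraries were the low side of the contrast that chose the genes. With GC offsets the values of AHNAK2 and VGF were -0.09 and 0.60, and that of VGF was 0.35 without untreated clone 3 and -1.39 without untreated clone 4.

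In GSK126-treated EIR cells (12.4% of genes differed from parental cells), the largest distance was that of VGF, at 1.60 times the parental level in clone 3 and 7.52 times in clone 4 (log2 fold change 2.19, SE 1.03, 95% interval 0.17 to 4.21, DESeq2 adjusted p = 0.159). This distance rested on treated clone 4, since without it the log2 fold change was 0.69 (DESeq2 adjusted p = 0.917), and without treated clone 3 it was 2.897 (DESeq2 adjusted p = 0.0452). Either of these sets 1 treated library against 1 parental library. GPNMB reached 1.14 and 2.09 times the parental level (log2 fold change 0.70, SE 0.57, DESeq2 adjusted p = 0.5001). AHNAK2 reached 1.07 and 1.14 times (log2 fold change 0.15, SE 0.24, DESeq2 adjusted p = 0.784), and with GC offsets its log2 fold change was 0.54. The treated libraries were the high side of the contrast that chose the genes, and all contrasts of this kind rest on the same parental library.

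**Figure D3:**
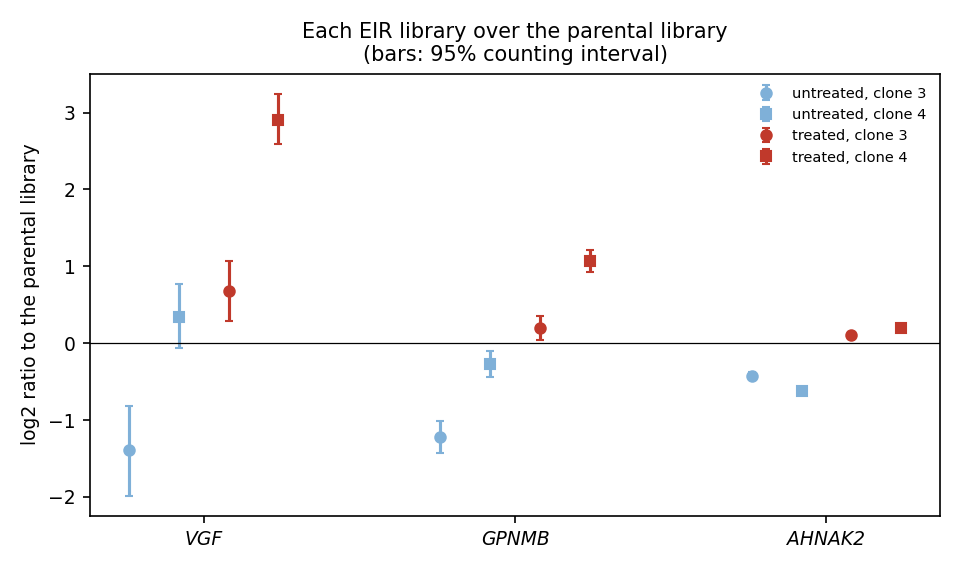
Log2 ratio of each EIR library to the parental library for VGF, GPNMB and AHNAK2, with untreated libraries in blue, treated ones in red, circles for clone 3, squares for clone 4 and bars for the 95% counting interval. For GPNMB and AHNAK2 the blue points lie below 0 and the red points above it, while VGF in untreated clone 4 lies above 0 with an interval that reaches it.

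The clones were then compared with each other, with treatment as covariate. VGF was higher in clone 4 than in clone 3, 3.33-fold in untreated cells (95% counting interval 2.28 to 4.96) and 4.70-fold in treated cells (3.92 to 5.67) (fitted log2 difference 2.01 with SE 0.36, DESeq2 adjusted p = 7.134e-07). GPNMB was higher in clone 4 as well, 1.93-fold (1.67 to 2.24) and 1.83-fold (1.67 to 2.01) (fitted log2 difference 0.90 with SE 0.23, DESeq2 adjusted p = 0.00156). AHNAK2 was at 0.868 times the clone 3 level in untreated and 1.07 times in treated cells (log2 fold change -0.06, SE 0.17, 95% interval -0.40 to 0.27, DESeq2 adjusted p = 0.949). Of all genes tested, 9.81% passed in this contrast. The calls for VGF and GPNMB depend on the covariate, since without it the adjusted p was 0.382 and 0.647. The residual spread of that fit, 1 degree of freedom per gene, is also the spread against which treated and untreated cells were set, so it is not independent of the choice of these genes. The clones also differed in the OCCC markers KRT19 and EPCAM given above, whose part in this result was not tested.

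The genes whose pattern over the 5 libraries came nearest to each of the 3 were found by the Euclidean distance between centered log2 profiles. For VGF these were IGFBP4 (distance 0.94), the imprinted long noncoding RNA H19 (1.31) and GPNMB (1.57). H19 had 61.4 normalized counts in parental cells, 33.3 and 67.2 in clone 3 and 183 and 500.4 in clone 4. For GPNMB they were the glycosyltransferase MGAT5B (0.62), the read-through locus NME1-NME2 (0.65) and the nuclease subunit SLX1A (0.67). The last 2 share reads with overlapping or near-identical genes and are uncertain. For AHNAK2 they were DGAT2, an enzyme of triacylglycerol synthesis (0.23), SHROOM2, an actin-binding protein (0.26), and ZMIZ1, a transcriptional coregulator (0.27). Profiles were centered but not scaled, so the distance depends on the size of the changes as well as on their shape. It does not order genes by shape alone. Among the 3 genes themselves, GPNMB was nearer to AHNAK2 (distance 1.22) than to VGF (1.57), and VGF and AHNAK2 were 2.71 apart. Seen from GPNMB, AHNAK2 was the 167th nearest gene and VGF the 2180th, and seen from VGF, AHNAK2 was the 825th.

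Genes next to the 3 in the genome were examined for the same ratio of treated over untreated cells. No counted gene overlapped VGF, GPNMB or AHNAK2. AP1S1, an adaptor subunit of vesicle transport that ends 913 bases from VGF, had log2 ratios of -0.06 in clone 3 and -0.22 in clone 4. NAT16 and MOGAT3, on the other side of VGF, had at most 9 reads in any library. Around GPNMB, NUP42 of the nuclear pore (0.07 and -0.36), MALSU1 of the mitochondrial ribosome (0.27 and -0.12) and the RNA-binding protein gene IGF2BP3 (-0.10 and -0.30) did not reach 0.5 in either clone. The noncoding gene ENSG00000226816 had 339 reads in the parental library and 1 to 8 in the others. Around AHNAK2, CEP170B had 0.27 and 0.40, CLBA1 0.07 and -0.16 and CDCA4 0.08 and 0.005, and the noncoding gene ENSG00000258593 had at most 5 reads.

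Genes of the pathways around the 3 were then counted. In the contrast of treated with untreated EIR cells, none of the genes of 8 lists passed with DESeq2, with or without the replicate block. Over all genes whose mean normalized count was 100 or more, 25.8% were higher in the treated library of both clones. Of 14 genes of the granin and neuropeptide secretory pathway in the table, 5 had this mean level. Their median log2 ratio was -0.01 in clone 3 and 0.09 in clone 4, and 2 were higher in both clones. PTPRN, a membrane protein of dense core granules, had 0 and 3 reads in clone 3 and 2 and 9 in clone 4, too few to give a fold. Against parental cells, 2 genes of this list were lower and 0 higher in EIR cells, where 25.5% of all genes tested were called in either direction. PCSK1, a convertase that cleaves prohormones, fell from 1519 reads to between 4 and 7 (log2 fold change -8.19, DESeq2 adjusted p = 1.59e-65), and CPE, the carboxypeptidase that trims the cut peptides, fell from 12999 to between 1930 and 3113 (-2.36, DESeq2 adjusted p = 3.856e-19). The proteins that bind VGF peptides (C3AR1, C1QBP and HSPA8) gave 0 calls in either direction, and the 2 of them at this mean level had median log2 ratios of -0.03 and -0.28.

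Genes that respond to cAMP and CREB had median log2 ratios of -0.01 and 0.02 in the treated clones (7 of 12 at this mean level), with 2 higher in both. Against parental cells, 6 of the 12 were lower and 0 higher in EIR cells, beside the 25.5% of all genes called in either direction. Among them were the nuclear receptors NR4A1 (log2 fold change -3.50, DESeq2 adjusted p = 5.219e-07) and NR4A2 (-2.58, DESeq2 adjusted p = 0.000192), the kinase SIK1 (-1.99, DESeq2 adjusted p = 2.458e-14) and the AP-1 subunit FOS (-1.56, DESeq2 adjusted p = 0.0275). The call of FOS held in only 3 of 10 alternatives. NR4A1 had 504 reads in the parental library and 21 to 64 in the others.

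Of the MiT/TFE transcription factors, TFEB (log2 fold change -1.86, DESeq2 adjusted p = 0.000242) and TFE3 (-0.51, DESeq2 adjusted p = 0.0419) were lower in EIR than in parental cells, and TFEB had log2 ratios of 0.27 and 0.64 in the treated clones on 44 to 66 reads. The call of TFE3 held in only 2 of 10 alternatives. Of the 7 pathway lists with genes at this mean level, the lysosomal targets of MiT/TFE factors had the highest medians in both clones. Of 16 at this mean level, 7 were higher in both treated clones and 0 lower in both, with median log2 ratios of 0.08 and 0.21. Of all 11564 genes at this mean level, 2983 were higher in both and 2586 lower in both. Against parental cells 3 were higher and 4 lower, and only the 4 largest of these changes are named. The autophagy receptor SQSTM1 (0.90, DESeq2 adjusted p = 1.235e-07), the folliculin partner FNIP1 (0.90, DESeq2 adjusted p = 0.000804) and the coactivator PPARGC1A (1.39, DESeq2 adjusted p = 3.566e-08) rose, and the protease CTSB fell by 1.31 on the log2 scale (DESeq2 adjusted p = 1.461e-09). The melanosome genes, the other setting in which GPNMB is known, were at low counts. None of 9 reached the mean level. OCA2 had the most reads, 65 and 74 in untreated and treated clone 3 and 7 and 16 in clone 4, PMEL had 14 to 64 and GPR143 11 to 58 over the 5 libraries, and MLANA had 1 to 4.

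All 8 partners and sheddases of the GPNMB ectodomain were at this mean level, with median log2 ratios of 0.06 in treated clone 3 and -0.32 in treated clone 4. Against parental cells 4 were lower and 0 higher. These were the integrin subunits ITGB3 (log2 fold change -1.13, DESeq2 adjusted p = 0.000352), ITGA5 (-0.81, DESeq2 adjusted p = 0.0270) and ITGB1 (-0.76, DESeq2 adjusted p = 0.0128), and the proteoglycan SDC4 (-0.97, DESeq2 adjusted p = 0.0128). The AHNAK family and its annexin and S100 partners had 7 of 10 genes at this level, with median log2 ratios of 0.05 and 0.10, and 3 were higher in both treated clones. PRX, the periaxin gene and relative of AHNAK2, was lower in EIR cells (-1.97, DESeq2 adjusted p = 0.000224), as was MYOF, a ferlin of membrane repair (-0.86, DESeq2 adjusted p = 0.00116). DYSF, the related dysferlin, had 0 reads in parental cells, 5 and 14 in clone 3 and 4 and 10 in clone 4. The median log2 fold change against parental cells over all genes at this mean level was -0.06. Against a background of 25.5% of genes called, 18 list genes are named here for their distance from parental cells, of which edgeR called 12, all but FOS, TFE3, SDC4, ITGB1, ITGA5 and MYOF. Of 10 alternatives, the call of TFE3 held in 2, those of FOS and ITGA5 in 3 each and that of ITGB1 in 8. Those of SDC4 and MYOF were lost with edgeR only. The calls of FNIP1 and PRX were lost with GC offsets, and those of the other 10 genes held in each alternative that could be fitted for them.

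**Figure D4:**
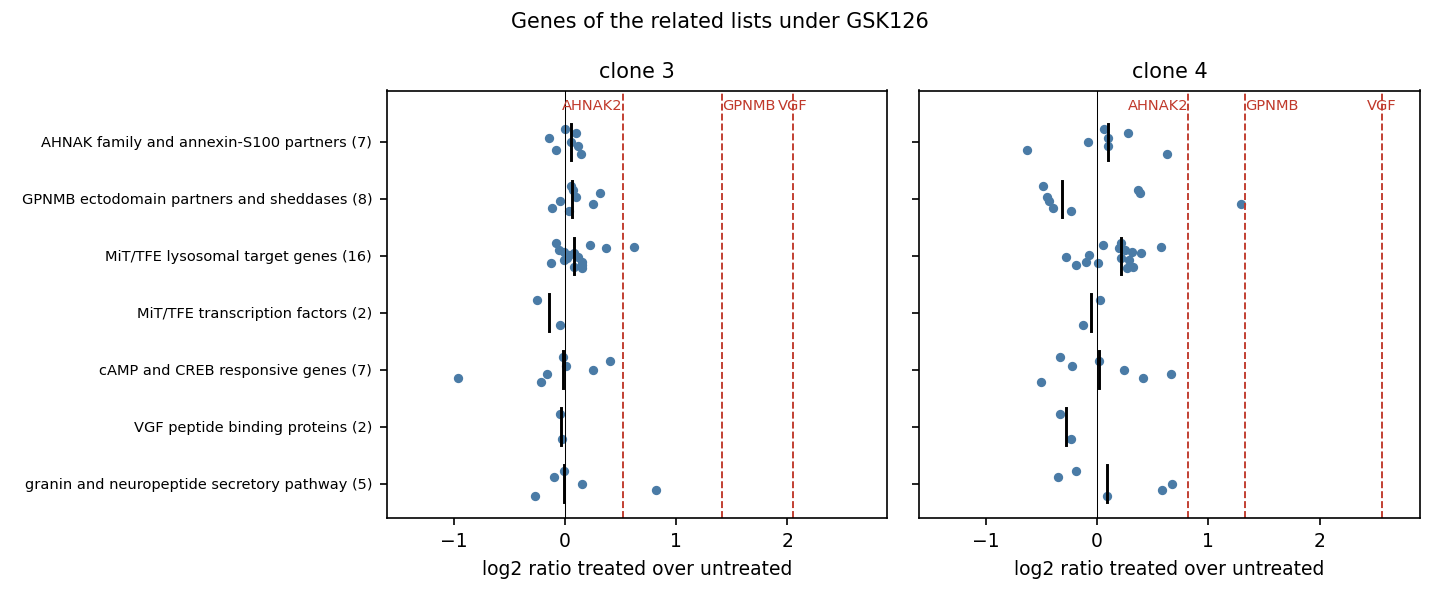
Log2 ratio of treated over untreated libraries in clone 3 (left) and clone 4 (right) for genes of 7 lists whose mean normalized count was 100 or more, 1 point per gene, with a black bar at the list median, the number of genes in brackets and red dashed lines at AHNAK2, GPNMB and VGF. List medians lie between -0.32 and 0.21, below the line of AHNAK2 at 0.52 in clone 3 and 0.82 in clone 4.

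Markers of cell types in which VGF or GPNMB is abundant were read in the same libraries, and their part in the results was not tested. Neuroendocrine markers (4 of 7 in the table) summed to 130 normalized counts in parental cells, 111 to 202 in untreated and 125 to 167 in treated EIR libraries. SNAP25 had 68 to 164 reads, SYP 31 to 54 and CHGA 0 or 1. Macrophage markers (7 of 8) summed to 73.5 in parental cells, 86.1 to 112 in untreated and 87.0 to 107 in treated libraries. CSF1R and CD163 had 0 or 1 read and CD68 36 to 86. PTPRC (7 and 15 reads in untreated and treated clone 3, 2 and 10 in clone 4) and CD14 (0 and 1, 2 and 7) had more reads in the treated library of both clones. CD68, with more reads than either, had fewer in both (64 and 56, 86 and 62), and LYZ went both ways (21 and 16, 19 and 21). Melanocyte markers (5 of 6) summed to 75.5, 34.3 to 44.8 and 35.6 to 52.9, with TYR at 0 or 1 read and TYRP1 at 9 to 22. Fibroblast markers (6 of 6) summed to 359, 83.4 to 154 and 116 to 121. DCN had more reads in the treated library of both clones (26 and 50, 10 and 16) and COL3A1 fewer (31 and 1, 20 and 17). COL1A1 (71 and 54, 13 and 36) and PDGFRB (11 and 4, 10 and 16) went both ways. COL1A2 had 27 and 3 reads in clone 3 and 29 and 29 in clone 4, and LUM 0 and 5, 0 and 0.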

How the data were processed

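Total RNA libraries were prepared by the authors with a stranded kit. Per the labels and the methods of the study, reads were aligned to hg19 with Bowtie2 and counted with RSEM, and the values the authors deposited are estimated counts per Ensembl gene, rounded (0 values were not whole) and not normalized. Strand use in counting is not given in the sources used here.

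Symbols came from GENCODE release 44 on GRCh37, which matched 95.8% of identifiers. Tests used DESeq2 1.42.0 (two-sided Wald test, Benjamini-Hochberg over all genes, R 4.3.3). Alternatives were edgeR 4.0.16, TMM and total count scaling, GC offsets, a low count filter, no covariate and leaving out each EIR library. For EIR against parental cells, another alternative summed the libraries of each clone. Fits were tested on simulated data. Log2 ratios used a pseudocount of 0.5.

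The genes and lists were chosen with earlier results of these data known. Named besides the 3 genes were their 3 nearest patterns, 2 neighbors on each side, the next 3 genes by ratio, and list genes at a log2 ratio of at least 1 in both clones or among the 4 largest called changes against parental cells. Results for some single genes are not reported here. EIR libraries of the same clone share its number in the labels, which pairs treated with untreated (correlation of deviations 0.862). Since nothing states separate cultures, p-values measure only the spread between these libraries, which may be technical.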

Additional observations from a re-analysis of the deposited data

Results flagged for a closer look

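Treated clone 4 stood apart for VGF among the 4 EIR libraries. Its gap to the next library was 0.8295 of the whole range, just above the 95% critical value of Dixon's test. Chance exceeds that value in about 1 in 20 groups, but this rate does not apply here. VGF was chosen because its counts were higher in the treated libraries, and the group joins treated and untreated libraries. The highest and the lowest EIR library were tested for VGF, GPNMB and AHNAK2, and no other was flagged. The gap is therefore given as a description only. VGF and GPNMB were higher in clone 4 than in clone 3 in both treatments, in a fit that held no parental library. The log2 fold change was 2.01 for VGF (DESeq2 adjusted p = 7.134e-07) and 0.90 for GPNMB (DESeq2 adjusted p = 0.00156). Neither call held without treatment as covariate. The residual spread of that fit, as given above, is not independent of the choice of these genes.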

How the results depend on the processing

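Over 142 alternatives for 19 results, 117 kept their direction and side of the threshold, or moved within the spread. With GC offsets the log2 fold change of AHNAK2 in EIR against parental cells was 0.26 and in clone 4 against clone 3 it was 0.080, and that of VGF in untreated EIR against parental cells was 0.60, each of opposite sign to the value without offsets. Leaving out each EIR library in turn gave -0.31 to 0.44 for GPNMB in EIR against parental cells, -1.39 to 0.35 for VGF in untreated and 0.69 to 2.897 for VGF in treated EIR against parental cells. For clone 4 against clone 3, fitted without the covariate and chosen after seeing the data, it gave 0.36 to 3.49 for VGF, 0.073 to 1.73 for GPNMB and -0.50 to 0.32 for AHNAK2, none past the threshold. No treatment covariate with all 4 libraries gave 2.15 for VGF and 0.89 for GPNMB. Total count scaling moved the log2 ratio of treated over untreated clone 4 to 1.49 for GPNMB and 0.97 for AHNAK2. The number of genes called between treated and untreated EIR cells was 1, against 0 with edgeR and 1 to 25 without 1 library. The cause was not tested for these.

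The clone number as replicate block gave 4 calls between treated and untreated EIR cells and, added to edgeR after seeing the data, 1. The block applies to no contrast with parental cells. With 1 parental library and 1 library per clone and condition, no value could be set against replicate cultures, and VGF in untreated clone 3 rests on 37 reads.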
